A study of Mus musculus with 7 samples.

Results

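Brown adipocytes burn fat to make heat, and the genes described here are 8 that mark them: Ucp1, Cidea, Dio2, Elovl3, Prdm16, Adrb3, Otop1 and Kcnk3. They are 8 of the 46603 Ensembl genes counted in tumors derived from NM1 KO and KO + NM1 cells, and were found by their symbols in the GENCODE M21 annotation. The set was chosen by its levels in KO against KO + NM1 tumors and by the order of those levels among the KO + NM1 pieces. Levels, fold changes and orders of the 8 genes are therefore given as a description, without a test. KO cells are mouse embryonic fibroblasts in which NM1 (nuclear myosin 1, an isoform of Myo1c) was deleted with CRISPR/Cas9. KO + NM1 cells are the same KO line transduced with a lentivirus for NM1 carrying HA and V5 tags, selected with neomycin and grown as single clones. Both were injected subcutaneously into the right flank of female Balb/c nude mice of 16 weeks, 5 mice per group, and the labels give removal of the tumors at 30 days. According to the sample labels each condition gave a tumor that was cut into 4 equal pieces, and 3 KO pieces and 4 KO + NM1 pieces were sequenced. Replicates are thus pieces, and every SD, standard error and p-value covers the spread between pieces, which may hold no difference between mice. Counts per gene do not separate transcripts of the injected cells from those of the host.

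In a brown adipocyte, noradrenaline from sympathetic nerves acts on the beta3-adrenergic receptor, raises cyclic AMP and starts lipolysis. The fatty acids released are fuel for the mitochondria and activate UCP1, a carrier of the inner mitochondrial membrane that lets protons flow back without making ATP, so that the energy leaves as heat. Brown and beige adipocytes share this program, which PRDM16 and PGC-1alpha promote, whereas white adipocytes store lipid and have little UCP1.

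Sequences upstream of the start site are shown for Ucp1 and Dio2, the members with the largest and the smallest fitted fold change between the tumors, since both are textbook targets of the cyclic AMP pathway. They come from RefSeq on build GRCm38.p6, whose promoter table matched 4 of the 8 members, Ucp1, Dio2, Prdm16 and Otop1. Each run is the 250 bases before the RefSeq start site, read 5′ to 3′ on the strand of the gene. Capitals mark every match, on either strand, to AGGTCA (a nuclear receptor half-site), TGACGTCA (the cyclic AMP response element), TGACG (its shorter form, which lies inside the full element), TATAAA (the TATA box), its common variant TATATA, or the promoter element known as CCAAT. The Ucp1 run is chr8:83290098-83290347 on the plus strand, and its RefSeq start site lies 4 bases from the gene start in the annotation. The Dio2 run is chr12:90739039-90739288 on the minus strand, and its RefSeq start site lies 600 bases from the annotated gene start.
Ucp1: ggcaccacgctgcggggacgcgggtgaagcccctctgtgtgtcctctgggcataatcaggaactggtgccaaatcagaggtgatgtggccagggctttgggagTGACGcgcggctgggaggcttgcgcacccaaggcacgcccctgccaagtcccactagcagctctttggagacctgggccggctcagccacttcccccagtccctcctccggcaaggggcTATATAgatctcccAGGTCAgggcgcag
Dio2: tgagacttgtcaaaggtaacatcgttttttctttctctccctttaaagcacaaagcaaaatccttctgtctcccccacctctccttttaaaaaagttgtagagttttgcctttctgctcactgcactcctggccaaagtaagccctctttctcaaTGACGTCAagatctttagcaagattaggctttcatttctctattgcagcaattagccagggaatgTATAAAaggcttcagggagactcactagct
Ucp1 held TGACG from 147 to 143 bases upstream of the start site, TATATA at 28 to 23 bases, and, nearest to the start, AGGTCA at 14 to 9 bases upstream. Dio2 held the full TGACGTCA from 95 to 88 bases upstream and TATAAA from 30 to 25 bases upstream. Of 32851 promoters in the table, 1.55% held TGACGTCA in the same window, 17.8% held TGACG and 14% held AGGTCA. Of the same promoters 12.4% held TATAAA, the variant TATATA was found in 5.25%, and 33.8% had at least 1 copy of CCAAT. In the same window Prdm16 held CCAAT from 98 to 94 bases upstream and no other of these motifs, and Otop1 held none of them. The RefSeq start site of Prdm16 is the annotated gene start. That of Otop1 lies 1432 bases from it, so the Otop1 window is inside the annotated gene. A match is a description of letters, not evidence of a site in use.

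The 7 libraries held between 24088309 and 28326568 counts, so that 3 counts, the limit that a count of 0 allows, corresponded to 0.0991 to 0.148 CPM (counts scaled to the library size, here with the TMM correction for library composition). Such limits cover counting error only. Mitochondrially encoded genes accounted for 1.81% to 2.14% of all counts in KO pieces and for 5.11%, 10.5%, 18.5% and 7.77% in KO + NM1 pieces 01 to 04. Myo1c, the gene that was targeted, reached 313, 289 and 306 CPM in the KO pieces and 438, 408, 406 and 382 CPM in the KO + NM1 pieces, and counts per gene do not show its NM1 isoform alone. Summed CPM of the 10 pan-adipocyte markers (Adipoq, Plin1, Fabp4, Cidec, Lipe, Pnpla2, Cfd, Pparg, Cebpa and Lpl) was 261 to 487 in the KO pieces. It was 5572, 39560, 40020 and 28640 in KO + NM1 pieces 01 to 04, so transcripts of fat were present in every KO + NM1 piece and fewest in piece 01. In bulk tissue, fewer cells of a type and less RNA per cell cannot be told apart.

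Ucp1, the uncoupling protein itself (ENSMUSG00000031710, chromosome 8, 83290352 to 83298452, plus strand), was close to the counting limit in the KO tumor and abundant in the KO + NM1 tumor. KO pieces 01, 02 and 03 held 2, 1 and 4 Ucp1 counts, or 0.0667, 0.0348 and 0.132 CPM. In KO + NM1 pieces 01, 02, 03 and 04 there were 5246, 7986, 35935 and 3155 counts, or 191, 325, 1775 and 130 CPM. The groups were far apart, and piece 03 stood above the other KO + NM1 pieces. Its fitted log2 fold change, KO minus KO + NM1, was -12.83 (SE 1.46), and -11.36 without KO + NM1 piece 03. Pooled over pieces and scaled by library size, 7 counts against 52322 gave a level 6890-fold higher in the KO + NM1 tumor (95% counting interval 3350 to 17100).

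Cidea, which encodes a lipid droplet protein of brown fat (chromosome 18, 67343604 to 67367785, plus strand), had 0.0667, 2.75 and 0.066 CPM in the KO pieces. The KO + NM1 pieces had 96.9, 243, 793 and 113 CPM. KO piece 02 was the highest of its group but still far below every KO + NM1 piece. The log2 fold change was -8.34 (SE 1.29), and -12.22 without KO piece 02. Elovl3, a fatty acid elongase of brown fat that is also known from the skin (chromosome 19, 46131897 to 46135694, plus strand), had 1.07, 7.89 and 0.198 CPM in the KO pieces and 13.9, 15.7, 144 and 6.33 CPM in the KO + NM1 pieces. Here the groups overlapped, since KO piece 02 lay above KO + NM1 piece 04. The log2 fold change was -3.88 (SE 1.40), -6.28 without KO piece 02 and -1.99 without KO + NM1 piece 03. Summed CPM of 6 keratinocyte markers was 1209 in KO piece 02 against 25.7 and 3.86 in KO pieces 01 and 03, and the part of skin transcripts in the Elovl3 value was not tested.

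The receptor that starts the program, Adrb3, encodes the beta3-adrenergic receptor (chromosome 8, 27225776 to 27250616, minus strand). It had 0.2, 1.46 and 0.297 CPM in the KO pieces and 102, 667, 706 and 473 CPM in the KO + NM1 pieces. Unlike Ucp1, it was at similar levels in KO + NM1 pieces 02 and 03, and piece 01 was the low one. The log2 fold change was -9.54 (SE 0.85), and -11.03 without KO piece 02. Dio2, the deiodinase that makes active thyroid hormone inside the cell (chromosome 12, 90724552 to 90738438, minus strand), was the exception. It had 1.17, 1.29 and 1.95 CPM in the KO pieces and 0.474, 2.48, 5.58 and 3.08 CPM in the KO + NM1 pieces. KO + NM1 piece 01 was below all KO pieces and the other KO + NM1 pieces were above them. The log2 fold change of Dio2, -0.98 (SE 0.71), was small beside those of the other members, and it was -0.47 without KO + NM1 piece 03.

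Prdm16, which encodes a transcription factor that directs precursors to the brown fate (chromosome 4, 154316125 to 154636873, minus strand), had 0.0667, 0.417 and 0.693 CPM in the KO pieces. It had 6.97, 17.7, 26.6 and 17.9 CPM in the KO + NM1 pieces, without overlap, and a log2 fold change of -5.45 (SE 0.71). Otop1, which encodes a proton channel and is enriched in brown fat (chromosome 5, 38275972 to 38304217, plus strand), had 1.17, 0.938 and 0.066 CPM in the KO pieces. Its KO + NM1 values were 19.9, 59.3, 160 and 30.4 CPM, again without overlap, with a log2 fold change of -6.54 (SE 0.96). Kcnk3, which encodes a potassium channel of the 2-pore-domain family (chromosome 5, 30588170 to 30625271, plus strand), had 0.2, 0.139 and 0.462 CPM in the KO pieces. The KO + NM1 pieces had 25, 109, 206 and 72.8 CPM, and the log2 fold change was -8.56 (SE 0.81).

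**Figure D1:**
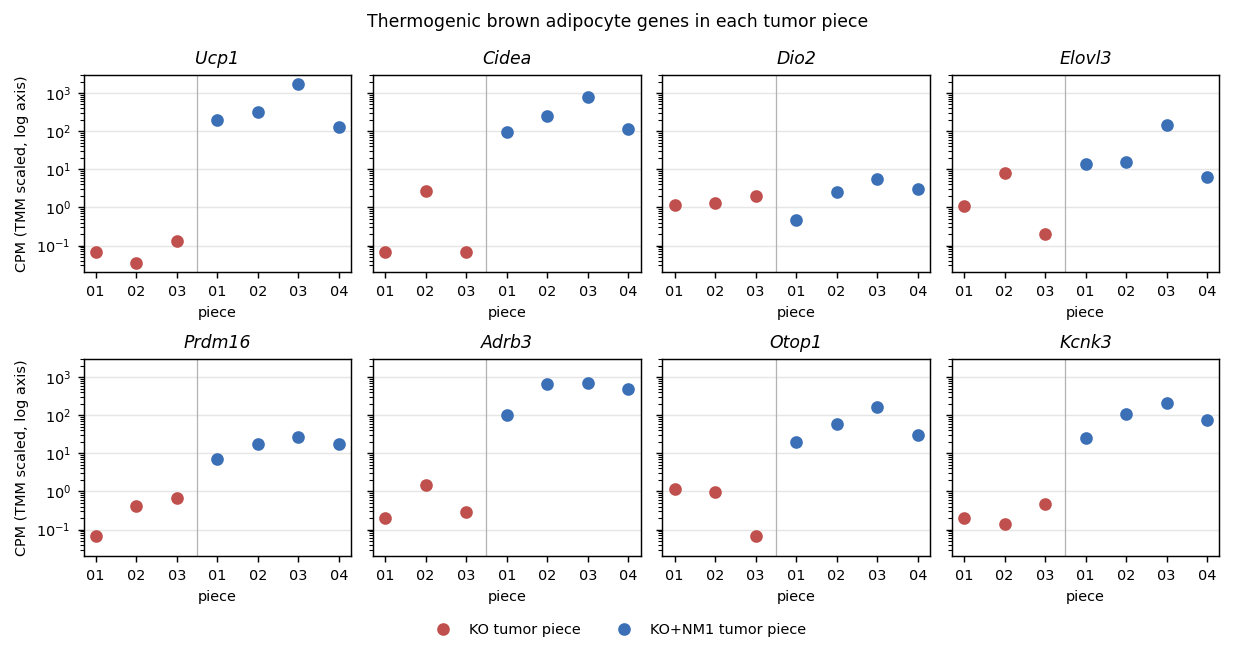
Level of each of the 8 genes in each tumor piece, as TMM-scaled CPM on a log axis, with 3 KO pieces in red and 4 KO + NM1 pieces in blue, 1 point per piece. The KO + NM1 points lie above all KO points except for Dio2 and Elovl3, and piece 03 is the highest KO + NM1 piece in every panel.

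For 6 of the 8 members, all but Dio2 and Elovl3, the highest KO piece was lower than the lowest KO + NM1 piece, which was also so for 26.4% of the 16887 genes tested. Since the members were selected on this contrast, nothing is read from their count. Genes other than the members were called where edgeR gave an adjusted p under 0.05 and the change was at least 2-fold, and of the genes tested 20.3% were called lower and 17.1% higher in KO. Compared per kilobase of exon, Ucp1 had the highest mean level of the 8 in the KO + NM1 tumor, at 370 CPM per kb, followed by Cidea with 279 and Adrb3 with 144. Kcnk3 had 26, Elovl3 22.8 and Otop1 19.6 CPM per kb. Prdm16, with 1.86, and Dio2, with 0.5 CPM per kb, were the lowest. This order rests in part on piece 03. Without it, a choice made after seeing the data, the mean was 132 CPM per kb for Ucp1, 135 for Cidea and 123 for Adrb3, and 6.06 for Elovl3 against 10.6 for Otop1, so that both pairs changed places. In piece 02 Cidea was above Ucp1, with 218 against 199 CPM per kb, and in piece 04 Adrb3 led with 140. Genes annotated on the opposite strand overlap 5 members, and the strand setting of the counting is not given in the sources used here. The most counted of these were Gm9899, which overlaps Kcnk3 and reached 377 counts in a library, B430212C06Rik, which overlaps Cidea and reached 285, and Pitx3, which overlaps Elovl3 and reached 28.

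Among the KO + NM1 pieces, piece 03 was the highest for all 8 members, which is part of what chose them. Below it the order differed from gene to gene. It ran 03, 02, 01, 04 for Ucp1 and Elovl3, 03, 02, 04, 01 for Cidea, Adrb3, Otop1 and Kcnk3, and 03, 04, 02, 01 for Dio2 and Prdm16. Piece 03 exceeded piece 02 by 9.18-fold for Elovl3 (95% counting interval 8.25 to 10.2) and by 5.46-fold for Ucp1 (5.33 to 5.6). The excess was 3.27-fold for Cidea, 2.71-fold for Otop1, 2.25-fold for Dio2, 1.89-fold for Kcnk3 and 1.5-fold for Prdm16. For Adrb3 it was 1.06-fold (1.03 to 1.08). Neighbours in the order that did not differ beyond counting error were pieces 04 and 02 for Dio2 (1.24-fold, 0.874 to 1.77), pieces 04 and 02 for Prdm16 (1.01-fold, 0.881 to 1.15) and pieces 02 and 01 for Elovl3 (1.12-fold, 0.973 to 1.3). Each piece was sequenced from a single library, so these intervals cover counting error only and not the error of preparing a library.

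To see whether the members followed the amount of fat from piece to piece, each level was divided by the summed pan-adipocyte markers of its piece. Adrb3 followed them closely, with 18.3, 16.9, 17.6 and 16.5 CPM per 1000 marker CPM in KO + NM1 pieces 01 to 04, a range of 1.11-fold. Ucp1 did not, with 34.3, 8.21, 44.4 and 4.53 CPM per 1000 marker CPM, a range of 9.80-fold (95% counting interval 9.45 to 10.2). Pieces 01 and 03 were the high ones, although piece 01 had the lowest sum of fat markers and piece 03 the highest. Elovl3 showed the widest range, 16.3-fold, with 2.5, 0.396, 3.59 and 0.221. Cidea had 17.4, 6.13, 19.8 and 3.94, a range of 5.03-fold. Otop1 spanned 3.77-fold, with 3.57, 1.5, 4.01 and 1.06, and Kcnk3 spanned 2.03-fold, with 4.48, 2.76, 5.15 and 2.54. For Ucp1, Elovl3, Cidea, Otop1 and Kcnk3, pieces 01 and 03 were thus both above pieces 02 and 04. Prdm16 was highest in piece 01, with 1.25 against 0.448, 0.665 and 0.625 in pieces 02 to 04. Dio2 was highest in piece 03, with 0.0851, 0.0627, 0.14 and 0.108, a range of 2.22-fold on few counts. With Adipoq as the only marker the ranges were 11.4-fold for Ucp1, 18.9-fold for Elovl3 and 1.35-fold for Adrb3.

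**Figure D2:**
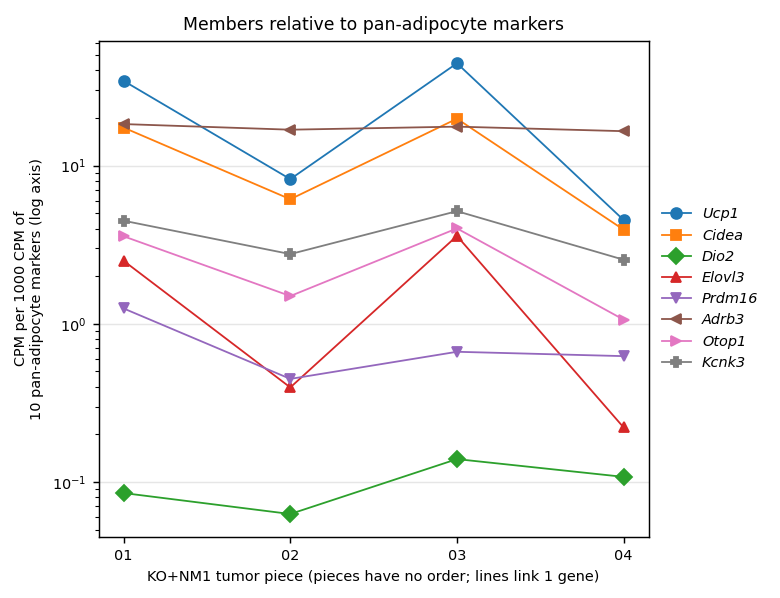
Level of each of the 8 genes in the 4 KO + NM1 pieces, as CPM per 1000 CPM of the 10 pan-adipocyte markers on a log axis, with 1 line per gene and 1 point per piece. Ucp1, Cidea, Elovl3, Otop1 and Kcnk3 are high in pieces 01 and 03 and low in 02 and 04, whereas Adrb3 stays between 16.5 and 18.3.

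Most other genes enriched in brown adipocytes had the same shape. Of 16 such genes, 15 had a mean of at least 1 CPM in the KO + NM1 pieces, and for 13 of them the level over fat markers was higher in both pieces 01 and 03 than in both pieces 02 and 04. The same held for 11% of 14586 genes. These shares are a description, since the order of the pieces was part of what chose the members. Lhx8 was an exception, with 0.897, 0.081, 0.0358 and 0.158 CPM per 1000 marker CPM in pieces 01 to 04. So was Epsti1, with 47.1, 0.226, 0.246 and 0.281. Zic1 was below the limit of 1 CPM and was not among the 15. Among the genes with the shape, the excess of piece 03 over pieces 02 and 04 was largest for Acot11, Fabp3 and Cox7a1. Acot11, an acyl-CoA thioesterase, had 4.01, 0.496, 3.89 and 0.458 CPM per 1000 marker CPM in pieces 01 to 04. Fabp3, a fatty acid binding protein, had 3.26, 0.637, 4.31 and 0.487, and Cox7a1, a subunit of cytochrome c oxidase, had 4.77, 1.12, 5.45 and 0.834. White-enriched genes did not share this shape, which was seen in 1 of 7. It was seen in 8 of 13 transcription regulators and 3 of 6 lipolysis genes, in 4 of 13 beta-adrenergic genes, 3 of 11 genes for heat without UCP1, 2 of 11 paralogs of the members, 1 of 5 beige genes, 1 of 3 secreted factors and 0 of 5 thyroid hormone genes. Lep, the gene of leptin, had 8.59, 11.5, 9.43 and 13.6 CPM per 1000 marker CPM, lowest in pieces 01 and 03. Lipe, hormone-sensitive lipase, had 51.3, 43.8, 47.7 and 42.6, slightly higher in pieces 01 and 03. Lipe, Plin1 and Pnpla2 of the lipolysis genes are themselves among the summed markers, so their ratios are tied to that sum. The same goes for Pparg and Cebpa of the regulators and for Cidec of the paralogs. Piece 01 held little fat, and its level over fat markers was above the mean of pieces 02 and 04 by a median of 5.89-fold over all these genes, so that a high ratio in piece 01 alone is not particular to brown adipocyte genes. The piece 01 median was 4.91-fold over the brown-enriched genes, below that of all genes, and 0.782-fold over the white-enriched genes. Of the members with the shape, Elovl3 was above the all-gene median at 8.11-fold. Ucp1 (5.39-fold), Cidea (3.46-fold), Otop1 (2.79-fold) and Kcnk3 (1.69-fold) were below it. In piece 03 the corresponding medians were 0.811-fold over all genes, 2.85-fold over the brown-enriched genes and 0.772-fold over the white-enriched genes.

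Markers of other cell types also differed between the tumors and between pieces. Their called counts stand beside background shares of 20.3% lower and 17.1% higher in KO over all genes tested. Skeletal muscle markers summed to 2668 to 21690 CPM in the KO pieces and 6.97 to 25.9 CPM in the KO + NM1 pieces, and 11 of 12 were tested and higher in KO. White-enriched genes were lower in KO for 5 of 7 tested, with sums of 25.1 to 43.8 CPM in the KO pieces and 205, 1729, 1410 and 1354 CPM in the KO + NM1 pieces. All 10 pan-adipocyte markers were called lower in KO. Endothelial markers were lower for 6 of 6, smooth muscle and pericyte markers for 5 of 6, Schwann cell markers for 5 of 6, mammary epithelial markers for 3 of 5 tested and fibroblast markers for 3 of 6. Of 4 keratinocyte markers tested, 1 was higher in KO, which is close to the background share. Macrophage markers were higher in KO for 4 of 6, and their sum was 2228 CPM in KO + NM1 piece 01 against 465 to 651 CPM in the others. Markers of sympathetic neurons summed to 0.133 to 1.08 CPM in all libraries, and none passed the filter on low counts. The part of these cell types, skeletal muscle included, in the levels of the members and of the pathway genes given below was not tested.

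**Figure D3:**
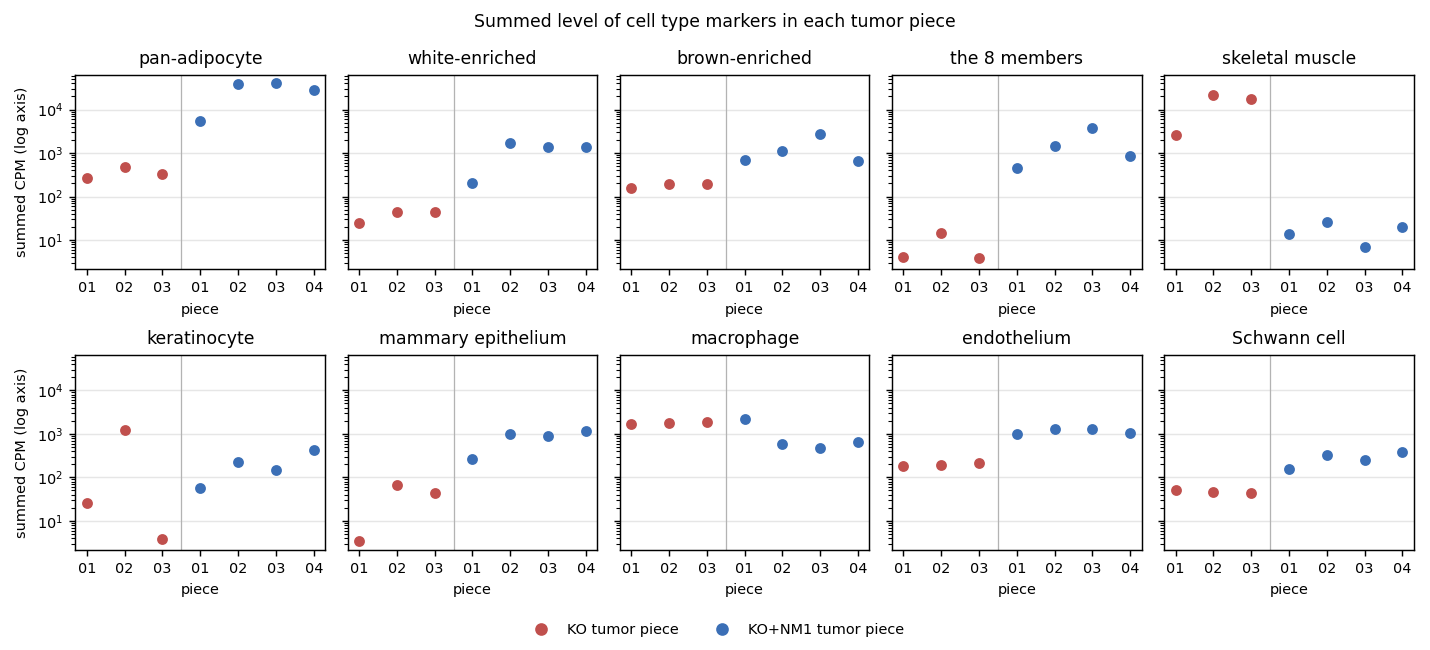
Summed CPM of 10 gene lists in each tumor piece on a log axis, with KO pieces in red and KO + NM1 pieces in blue, 1 point per piece. Fat markers are high in the 4 KO + NM1 pieces, with piece 01 the lowest, muscle markers are high in the 3 KO pieces, and keratinocyte markers reach 1209 in KO piece 02.

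The other genes of the brown fat pathway were compared by edgeR's quasi-likelihood test over all genes. Of 16 further brown-enriched genes, 10 were lower and 1 was higher in KO, beside background shares of 20.3% and 17.1%, with a median log2 fold change of -2.85 against -0.002 over all genes tested. Slc36a2, an amino acid transporter on brown adipocytes, had 0.165 to 0.556 CPM in the KO pieces and 67.2, 298, 427 and 172 CPM in the KO + NM1 pieces. Its log2 fold change was -9.50 (SE 0.72, adjusted p = 0.000598 from edgeR). Slc27a2, a fatty acid transport protein, was at 0 counts in KO pieces 01 and 03 and at 1 count in KO piece 02, against 2.85, 5.17, 21.1 and 2.22 CPM in the KO + NM1 pieces. Its log2 fold change was -8.93 (SE 2.10, adjusted p = 0.00271 from edgeR), and pooled counts gave a level 632-fold higher in KO + NM1 (95% counting interval 113 to 25000). Plin5, a lipid droplet protein of oxidative tissues, had a log2 fold change of -7.16 (SE 0.80, adjusted p = 0.0015 from edgeR). Zic1, a transcription factor used as a marker of classical brown fat, went the other way, with 26.6, 18.4 and 21.3 CPM in the KO pieces and 0.073, 0, 0 and 0.329 CPM in the KO + NM1 pieces. Its log2 fold change was 7.69 (SE 0.95, adjusted p = 0.00126 from edgeR), and it overlaps Zic4, on the opposite strand, which reached 125 counts. Cpt1b, P2rx5, Gk, Lhx8 and Epsti1 were not called. Among the called genes Cox7a1 lost its call without KO piece 01, Acot11 without KO piece 01 or 02, and Pank1 and Fabp3 without any 1 of the 3 KO pieces, at adjusted p up to 0.0946 from edgeR. Fabp3 overlaps Zcchc17, on the opposite strand, which reached 1355 counts. Of 5 beige adipocyte genes, Cited1 had a log2 fold change of -9.46 (SE 0.71, adjusted p = 0.0004 from edgeR) and Slc27a1 of -2.86 (SE 0.49, adjusted p = 0.00489 from edgeR). Tmem26, Tbx1 and Tnfrsf9, the cell surface and developmental markers of the list, were not called. Tnfrsf9 was higher in KO without overlap, with 35.5, 20.4 and 20.3 CPM against 13.7, 0.203, 0.692 and 0.658 CPM. Its log2 fold change was 2.73 (SE 1.3, adjusted p = 0.126 from edgeR). It was called higher with DESeq2, with limma voom and without KO + NM1 piece 01.

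Transcription regulators of the program were lower in KO for 9 of 13 and 0 were higher, beside background shares of 20.3% and 17.1%. Their median log2 fold change was -1.99. Pparg, the master regulator of all adipocytes, had 2.38 to 5.28 CPM in the KO pieces and 38.2, 226, 252 and 163 CPM in the KO + NM1 pieces. The log2 fold change was -5.51 (SE 0.60, adjusted p = 0.00148 from edgeR). Ppara, a regulator of fatty acid oxidation, had -5.23 (SE 0.90, adjusted p = 0.00587), and its highest KO + NM1 piece was again 03, with 25.6 CPM. Cebpa had -3.98 (SE 0.53, adjusted p = 0.00237) and Ebf2, which marks brown precursors, had -3.88 (SE 0.74, adjusted p = 0.00872). Ppargc1a, which encodes PGC-1alpha, had 0.533, 1.63 and 1.78 CPM in the KO pieces and 3.39, 10.9, 18.9 and 8.68 CPM in the KO + NM1 pieces, with a log2 fold change of -2.99 (SE 0.64, adjusted p = 0.0112 from edgeR). Zfp516 and Ehmt1, partners of PRDM16, and Irf4 and Cebpb were not called. Of these, Zfp516 was higher in KO without overlap, with 50, 50.2 and 46.4 CPM against 21.9 to 27.4 CPM. Its log2 fold change of 0.92 (SE 0.13, adjusted p = 0.00171 from edgeR) missed only the 2-fold criterion. Of 6 genes that restrain the program, Zfp423 (-3.84, SE 0.33, adjusted p = 0.000601) and Tle3 (-1.01, SE 0.15, adjusted p = 0.00231) were lower and Rbl1 (2.93, SE 0.31, adjusted p = 0.000749 from edgeR) was higher in KO. Zfp423 is known to hold adipocytes in the white state and Rbl1 encodes a relative of the retinoblastoma protein. The count of 3, to be read beside the same background shares, became 5 without KO + NM1 piece 01. The 2-fold criterion alone took Tle3 out with library size as the only scaling and with limma voom.

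Of 13 genes of beta-adrenergic signalling, 3 were lower and 0 higher in KO, with a median log2 fold change of -0.27, beside background shares of 20.3% and 17.1%. The 3 were Prkar2b, a regulatory subunit of protein kinase A (log2 fold change -5.38, SE 0.58, adjusted p = 0.00141), Adrb1, the beta1 receptor (-3.50, SE 0.48, adjusted p = 0.00223), and Pde3b, a phosphodiesterase of adipocytes (-2.39, SE 0.49, adjusted p = 0.00915 from edgeR). Lipolysis genes were lower in KO for 6 of 6, with a median of -5.81. They were Plin1, the perilipin of the fat droplet (-9.10, SE 1.00, adjusted p = 0.00261), G0s2 (-6.58, SE 0.65, adjusted p = 0.00124), Lipe (-5.86, SE 0.58, adjusted p = 0.00121), Mgll (-5.76, SE 0.65, adjusted p = 0.00176), Pnpla2 (-4.72, SE 0.57, adjusted p = 0.00189) and Abhd5 (-1.73, SE 0.44, adjusted p = 0.0193 from edgeR). Plin1, Lipe and Pnpla2 are also in the pan-adipocyte list, and Abhd5 lost its call without KO piece 01 or 03 (adjusted p up to 0.0609 from edgeR). G0s2 overlaps Lamb3, on the opposite strand, which reached 1120 counts. Of the factors that brown fat secretes, 4 of 4 tested were lower in KO, with a median of -3.74. Nrg4 had -4.64 (SE 0.65, adjusted p = 0.0029), Angptl4 -4.47 (SE 0.56, adjusted p = 0.00196) and Vegfa -3.02 (SE 0.35, adjusted p = 0.0013 from edgeR). Nrg4 overlaps Fbxo22, on the opposite strand, which reached 1545 counts, above the highest Nrg4 count of 1362. Fgf21, with -1.97 (SE 0.57, adjusted p = 0.0244 from edgeR), was under 1 CPM in every library. It lost its call without KO piece 01 or 02, with a replicate block and with no filter beyond 1 count (adjusted p up to 0.0732 from edgeR). Without KO + NM1 piece 01, 03 or 04 Fgf21 fell below the filter and was not tested. Bmp8b was below the filter in the main fit.

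Around Dio2, the thyroid hormone genes were lower in KO for 2 and higher for 1 of 6 tested, beside background shares of 20.3% and 17.1%. Their median log2 fold change was -0.10. Thra and Thrb, the thyroid hormone receptors, had log2 fold changes of -1.80 (SE 0.39, adjusted p = 0.00954) and -2.12 (SE 0.60, adjusted p = 0.0296 from edgeR). Thra overlaps Nr1d1, on the opposite strand, which reached 7192 counts, above the highest Thra count of 5942. As the strand setting is not given, the part of Nr1d1 reads in the Thra value is not known. Thrb lost its call without any 1 of the 3 KO pieces and without KO + NM1 piece 02, 03 or 04, at adjusted p up to 0.0882 from edgeR. Dio3, the deiodinase that inactivates the hormone, was higher in KO, with 0.667, 1.32 and 0.958 CPM in the KO pieces against 0.0365, 0, 0.0988 and 0 CPM, a log2 fold change of 4.76 (SE 0.97, adjusted p = 0.00314 from edgeR). Genes for heat without UCP1, by creatine cycling, calcium cycling or other routes, had 4 called lower, 3 called higher and 5 not called of 12, beside background shares of 20.3% and 17.1%, and a median of -0.26. Ckmt2, a mitochondrial creatine kinase that is also a muscle gene, had 7.23, 6.36 and 8.35 CPM in the KO pieces and 0, 0, 0.0494 and 0.0411 CPM in the KO + NM1 pieces. Its log2 fold change was 8.15 (SE 0.86, adjusted p = 0.000384 from edgeR), while that of Alpl, a phosphatase linked to the creatine cycle, was -4.30 (SE 0.47, adjusted p = 0.00118 from edgeR). Ryr2, a calcium release channel, had -4.62 (SE 0.69, adjusted p = 0.00194), and Pm20d1, which makes N-acyl amino acids, had -4.12 (SE 1.13, adjusted p = 0.0326 from edgeR). The count of 7 became 4 without KO piece 01, KO piece 03, KO + NM1 piece 02 or KO + NM1 piece 03, and Pm20d1 lost its call without each of these and without KO + NM1 piece 04, at adjusted p up to 0.106 from edgeR.

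**Figure D4:**
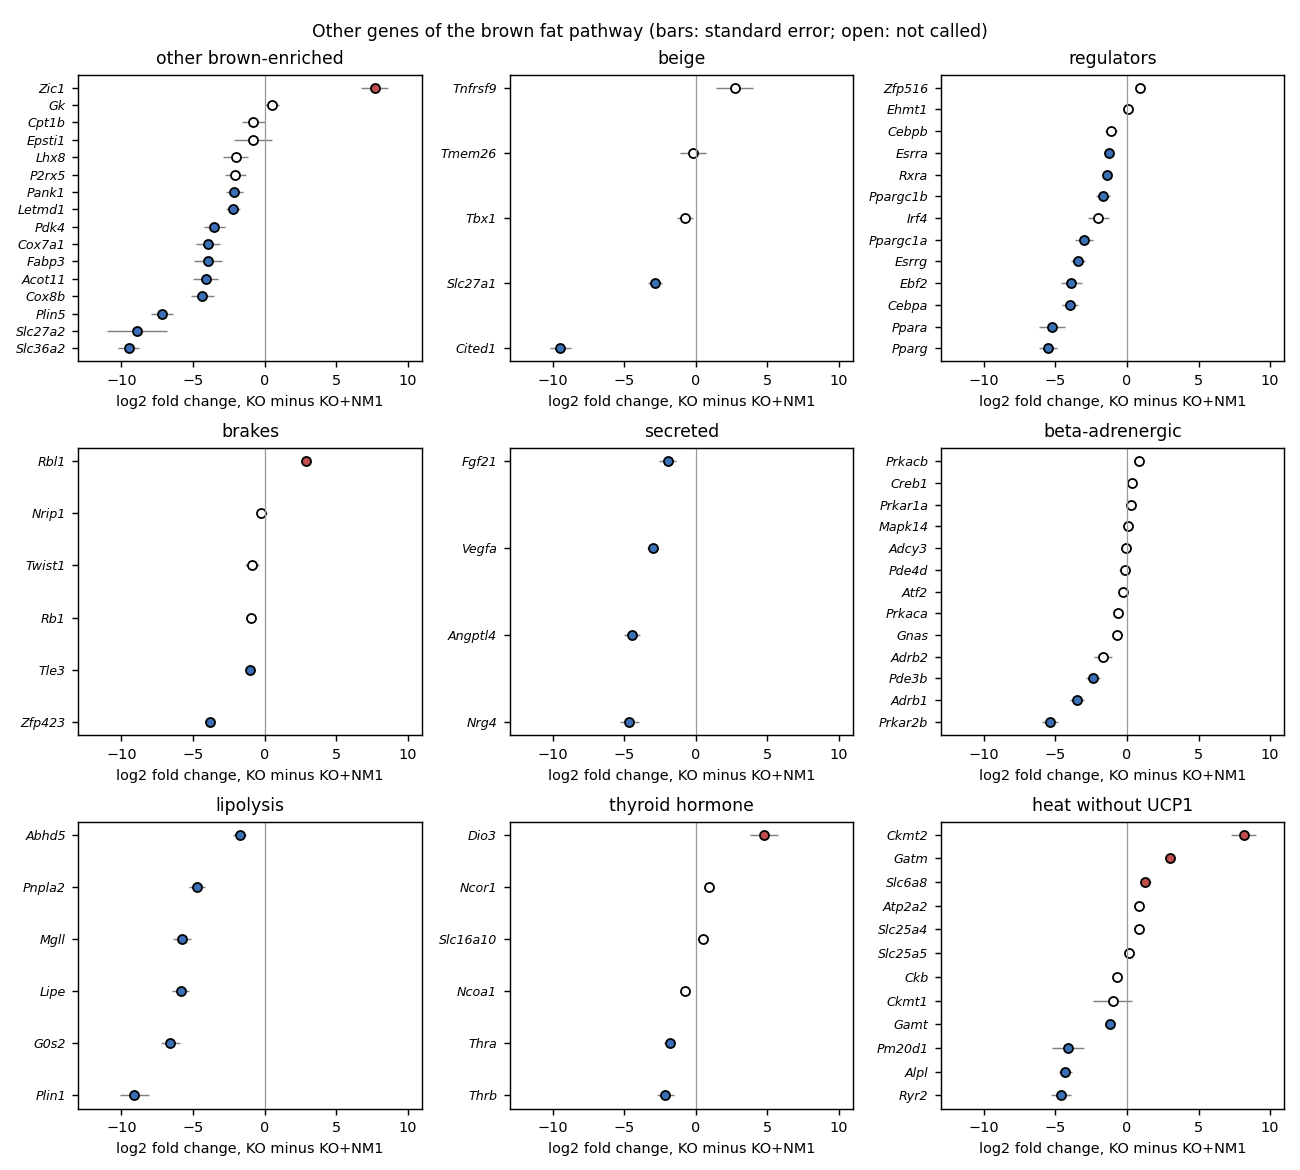
Log2 fold change, KO minus KO + NM1, of the tested genes in 9 lists of the brown fat pathway, with bars for the standard error. Blue points were called lower in KO, red points higher, and open points were not called. The lipolysis and secreted lists lie to the left of 0, whereas most beta-adrenergic genes are open and close to 0.

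Relatives of the members were not all alike. Of 18 paralogs, 12 were tested, and 5 were lower and 2 higher in KO, beside background shares of 20.3% and 17.1%. The count of 7 became 5 without KO piece 03 or KO + NM1 piece 02. Cidec, the family member of white fat, had a log2 fold change of -8.40 (SE 0.91, adjusted p = 0.00226 from edgeR), close in size to that of Cidea. Ucp2 had 533, 559 and 539 CPM in the KO pieces and 844, 456, 330 and 391 CPM in the KO + NM1 pieces. It had a log2 fold change of 0.10 (SE 0.33, adjusted p = 0.813 from edgeR) and was not called. Ucp3 was called lower in KO, with 0.633, 10.5 and 8.29 CPM in the KO pieces and 15.5, 66.2, 119 and 42.8 CPM in the KO + NM1 pieces. Its log2 fold change was -3.23 (SE 0.925, adjusted p = 0.0367 from edgeR). The call of Ucp3 was lost without KO piece 02 or 03 and without KO + NM1 piece 02, 03 or 04 (adjusted p up to 0.0864 from edgeR). Elovl4 was higher in KO, with 10.5, 32.1 and 4.92 CPM against 0.401 to 1.93 CPM, a log2 fold change of 3.71 (SE 0.72, adjusted p = 0.0064 from edgeR). Dio3 and Adrb1 are given above.

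Genes whose profiles over the 7 libraries were most like each member were sought among 14953 genes with a mean of at least 1 CPM, by the root mean square difference of log2 CPM after centring. For Ucp1 the nearest was Slc36a2, at 1.45, and the next were Prlr and Ltf, genes also known from mammary epithelium. Those of Cidea were Tmem45b, at 0.692, Pnpla3 and Lgals12, and those of Adrb3 were A530016L24Rik, at 0.345, Plin1 and Klhdc7a. Otop1 was nearest to Slc2a5, at 0.694, Orm3 and Btnl9. Kcnk3 lay nearest to A530053G22Rik, at 0.396, Ntrk3 and Timp4. For Elovl3 they were Pm20d1, at 1.08, Myo5b and 2310069B03Rik. Prdm16 was nearest to Capsl, at 0.204, Lims2 and Krt8, an epithelial keratin with 1.77, 7.23 and 17.8 CPM in the KO pieces and 78.4, 289, 268 and 360 CPM in the KO + NM1 pieces. Dio2 was nearest to Shox2, at 0.242, Tln2 and Aldh5a1. Among the members themselves the closest pair was Cidea and Adrb3, at 0.973, and the farthest was Ucp1 and Dio2, at 5.34. Distances over all 7 libraries include the contrast between the tumors that chose the members. Over fat markers in the KO + NM1 pieces alone, Cidea spanned 5.03-fold and Adrb3 1.11-fold.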

How the data were processed

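RNA was taken from 3 KO and 4 KO + NM1 tumor pieces. The authors prepared libraries with the NEBNext Ultra II kit, used Trimmomatic 0.36 for trimming, HISAT2 2.0.4 for alignment to GRCm38, SAMtools 0.1.19 for sorting and HTSeq for counting. The deposited values are raw read counts per gene, without normalization. The annotation release and the strand setting are not given in the sources used here. Symbols from GENCODE M21 were found for 46091 of 46603 genes. The labels and the paper's methods place the injection in the right flank, whereas its results name the mammary pad, and the day of removal also differs between labels and paper. The labels are followed.

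Counts were analysed in R 4.3.3. Genes kept by filterByExpr (minimum count 10) were normalized by TMM and compared with the quasi-likelihood test of edgeR 4.0.16, with Benjamini-Hochberg adjustment over all genes tested. A call needed an adjusted p under 0.05 and, on the log2 scale, a difference of 1 or more either way. Fold changes are KO minus KO + NM1, and log2 profiles used a prior count of 2. Alternatives were DESeq2 1.42.0, voom in limma 3.58.1, other scalings and filters, the adjusted p alone, a replicate block and each library left out. Libraries of a group were checked for repeats, and chi-square per degree of freedom of 35.2 to 687 showed none.

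The members and lists were chosen with earlier results of these data known, and 1 listed gene is not reported here and was left out of its list. Named were the members, the genes called in each list (the 4 largest changes where over 6 were called) and the 3 nearest profiles of each member. Ppargc1a, Ucp2, Ucp3, Acot11, Fabp3, Cox7a1, Pank1, Lep, Cpt1b and the other genes given as not called were named after their values were seen.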

Additional observations from a re-analysis of the deposited data

Results flagged for a closer look

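The distance of the most extreme of the 4 KO + NM1 pieces from the next, as a share of their range (Dixon's ratio), was taken for the summed CPM of 21 gene lists, the members left out because the order of the pieces helped to choose them. For 3 it was above the 95% critical value for 4 samples. By chance about 1 in 20 such groups passes, and the 21 sums are not independent. Piece 01 stood apart for the thyroid hormone genes, which summed to 306 CPM against 488 to 500 CPM (ratio 0.936). It also did so for the smooth muscle and pericyte markers, with 650 CPM against 1259 to 1353 CPM (ratio 0.866), and for the macrophage markers, with 2228 CPM against 465 to 651 CPM (ratio 0.894).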

How the results depend on the processing

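All 8 members kept a negative log2 fold change, KO minus KO + NM1, in every setting that kept them, and it ranged from -13.53 to -11.36 for Ucp1, from -12.22 to -7.32 for Cidea, from -6.28 to -1.99 for Elovl3, from -11.03 to -9.23 for Adrb3 and from -1.47 to -0.47 for Dio2. A minimum of 10 counts in every library left Dio2 alone of the members. It also left 7 called brown-enriched genes in place of 11, 1 beige gene in place of 2 and 4 genes for heat without UCP1 in place of 7, by its construction. By the adjusted p alone 5 beta-adrenergic genes and 5 thyroid hormone genes were called in place of 3 each. Leaving out each library in turn gave 3 to 5 called brakes and 4 to 7 called genes for heat without UCP1. The Ucp1 level over fat markers spanned 9.80-fold, and 11.4-fold with Adipoq alone. The median log2 fold change of all genes moved by -0.1 with DESeq2 size factors, -0.158 with upper-quartile scaling and 0.179 with library size only, against which the values above are to be read. Same-numbered pieces had deviations correlated at 0.0802, 0.102 and -0.0165, within the range of -0.12 to 0.109 over all pairs of a KO and a KO + NM1 piece. Correlations this weak show no clear pairing by number and cannot exclude one. With a replicate block 4917 genes were called in place of 6306, 2457 lower and 2460 higher in KO. The split of 3424 lower and 2882 higher turned to 2977 and 3401 with library size only, 3991 and 4096 with limma voom and 4132 and 4345 by the adjusted p alone. Depth limits the KO values, where Ucp1 rests on 7 counts in all.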

Other observations

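KO piece 02 had the highest sum of keratinocyte markers, 1209 CPM, against 56.1 to 420 CPM in the KO + NM1 pieces and less in the other KO pieces. Otop2, a proton channel related to Otop1, had 63 counts there (2.19 CPM) and 0 counts in the other 6 libraries, each of which allows up to 0.0991 to 0.148 CPM. Elovl4, an elongase known from the skin barrier, was highest in the same piece, with 32.1 CPM against 10.5 and 4.92 CPM in KO pieces 01 and 03 and 0.401 to 1.93 CPM in the KO + NM1 pieces. Whether skin in that piece accounts for these values was not tested.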
